A study of Homo sapiens with 12 samples.

Results

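Serine, asparagine and arginine can each be made inside a human cell, and 8 genes for these routes and for the passage of serine carbon into folates are described here in 6 lymphoma cell lines. The genes are PHGDH, PSAT1, PSPH, SHMT1, SHMT2, MTHFD2, ASNS and ASS1. Their probe sets, groups of short probes that together read a transcript on an Affymetrix HG-U133A array, were taken wherever the platform annotation gave a single gene symbol and that symbol was one of the 8. This found 11 of the 22215 probe sets that are not array controls, covering 8 of 11963 genes with such a probe set. Another 2 probe sets name PHGDH or SHMT1 together with other genes and were left out. The genes were chosen by their roles and with results from these same log2 values known, so their levels and differences are a description. Counts of calls among them stand beside the share of all probe sets called, and nothing is read from these counts.

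The study set 3 lines of classical Hodgkin lymphoma, KM-H2, L1236 and L428, against 3 lines of other B-cell lymphomas, Namalwa, SU-DHL4 and SU-DHL6. Namalwa derives from Burkitt lymphoma, and SU-DHL4 and SU-DHL6 from diffuse large B-cell lymphoma. All lines were untreated, no engineered allele is given in the labels, and all were grown in RPMI 1640 with fetal bovine serum, a medium that supplies serine, asparagine and arginine. Each line was hybridised on 2 arrays from 5 ug of total RNA, and the labels do not say whether the duplicates were separate cultures. SU-DHL4 and SU-DHL6 were new arrays and the other 4 lines came from an earlier dataset of the same group, so within the B-cell lines the dataset and the line cannot be told apart.

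PHGDH diverts 3-phosphoglycerate from glycolysis into serine, PSAT1 transfers an amino group to the product, and PSPH removes the phosphate to leave serine. SHMT1 in the cytosol and SHMT2 in mitochondria split serine into glycine and a carbon unit carried on folate, and MTHFD2 oxidises that folate in mitochondria for the synthesis of purines and thymidylate. ASNS makes asparagine from aspartate, and leukaemic cells with little of it are killed by asparaginase. ASS1 joins citrulline to aspartate on the way to arginine, and many lymphomas and other tumours with little of it depend on arginine from outside. ATF4, the transcription factor of the amino acid response, is known to induce PHGDH, PSAT1, SHMT2, MTHFD2 and ASNS.

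By the means of marker lists the lines bore their labels, though not in every marker. Array medians lay between log2 6.85 and 6.92 after RMA, which by default evens them, so they are no measure of array quality. Duplicates correlated across probe sets with r of 0.981 to 0.995. SU-DHL6 had the least alike duplicates, with 2.09% of probe sets over 2-fold apart against 0.0765% to 0.549% in the other lines, and the 3' minus 5' difference of GAPDH was 0.47 on its replicate 2 against -0.09 to 0.16 elsewhere, a measure of RNA integrity. The mean of 5 measured B-cell markers was 10.65 to 10.99 in B-cell and 6.69 to 7.55 in Hodgkin lines. That of 6 Hodgkin markers was 8.5 to 10.04 in Hodgkin and 6.36 to 6.76 in B-cell lines. PAX5, of the B-cell list, read 9.66 in L1236, near the B-cell lines (9.81 to 10.38) and unlike KM-H2 (5.88) and L428 (5.83). CD70, of the Hodgkin list, read 9.94 in Namalwa and 9.08 in L1236. Means of T-cell markers (5 of 5 measured, 6.88 to 7.19 over all lines), myeloid markers (4 of 5, 5.37 to 5.86) and fibroblast markers (5 of 5, 6.4 to 6.99) varied less, with DCN at 10.94 in SU-DHL4 against 7.92 to 8.09 elsewhere as the largest departure. No detection calls are used here, so signals at about an array's lower quartile, which was 5.64 to 5.75, cannot be separated from background, and probe sets of different genes cannot be ranked against each other. In a culture read in bulk, fewer expressing cells and less RNA per cell cannot be told apart.

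Promoter sequences, from 250 bases before to 50 bases after a start site, were found in RefSeq on GRCh38.p14 for 6 of the 8 genes, and for PSPH and SHMT2 none was used. The stretches below show the bases before the start of PHGDH, PSAT1 and ASNS. The line means of PHGDH and ASNS had the same 3 lines at the top, though Namalwa was not apart from SU-DHL4 for ASNS. PSAT1 takes the product of PHGDH but varied less over the lines. For ASS1 a stretch of 30 bases around an E-box is shown. Capitals mark matches on either strand to TGATGNAA, the core of the C/EBP-ATF element through which ATF4 acts, to CACGTG, the E-box read by MYC and related factors, and to CCAAT, read by NF-Y. The motifs share no letters with each other in these stretches.
PHGDH, chr1:119711684-119711933, plus strand: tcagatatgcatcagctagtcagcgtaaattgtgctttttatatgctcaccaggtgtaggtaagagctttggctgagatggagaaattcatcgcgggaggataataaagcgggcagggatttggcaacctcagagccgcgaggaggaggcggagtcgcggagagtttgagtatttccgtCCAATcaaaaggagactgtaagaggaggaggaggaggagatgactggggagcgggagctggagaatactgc
PSAT1, chr9:78296875-78297124, plus strand: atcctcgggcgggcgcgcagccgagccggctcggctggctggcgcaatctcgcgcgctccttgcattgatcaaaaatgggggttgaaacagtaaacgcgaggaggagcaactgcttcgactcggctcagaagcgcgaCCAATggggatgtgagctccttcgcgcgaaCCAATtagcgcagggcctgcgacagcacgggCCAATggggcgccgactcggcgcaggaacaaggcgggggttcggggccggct
ASNS, chr7:97872409-97872658, minus strand: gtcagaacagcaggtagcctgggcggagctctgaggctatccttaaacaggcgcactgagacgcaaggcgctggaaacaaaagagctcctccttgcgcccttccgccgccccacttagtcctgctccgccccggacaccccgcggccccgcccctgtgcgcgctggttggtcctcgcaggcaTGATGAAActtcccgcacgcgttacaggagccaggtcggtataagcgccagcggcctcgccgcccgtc
ASS1, chr9:130444878-130444907, plus strand: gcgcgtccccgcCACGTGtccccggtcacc

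TGATGNAA was present in 1 of the 8 windows of these genes, that of ASNS, where it began 68 bases before the start site (position -68), and in 3.62% of 35116 windows of all genes. CACGTG was found upstream of ASS1 alone among these windows, from position -71, and in 7.26% of all windows. CCAAT occurred at -71 in PHGDH, at -113, -83 and -52 in PSAT1, at -184 and -74 in MTHFD2 and at -76 and, reversed, at -25 in SHMT1, and in 34.6% of all windows. ASNS and ASS1 have another start site each, whose windows held none of the 3 motifs. The motifs were chosen with the expression values known, and a match is a description of the letters.

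PHGDH, the entry step of serine synthesis, was high in 3 lines and low in the other 3, and the split ran across both lymphoma types. On the arrays of the Hodgkin lines its log2 signal was 6.79 and 6.47 in KM-H2, 6.99 and 6.69 in L1236, and 9.56 and 9.45 in L428. In the B-cell lines it was 9.55 and 10.07 in Namalwa, 6.35 and 6.46 in SU-DHL4, and 9.68 and 10.18 in SU-DHL6. No array lay between 6.99 and 9.45. In order of line means, SU-DHL6 (9.93), Namalwa (9.81) and L428 (9.51) did not differ from each other beyond the spread of duplicates, nor did L1236 (6.84), KM-H2 (6.63) and SU-DHL4 (6.4) from their neighbours. Neighbouring lines were called different where their duplicates did not overlap and the gap exceeded 2 pooled duplicate standard deviations (SD) of the probe set. The gap between L428 and L1236 was 2.67, or 6.36-fold, against a pooled duplicate SD of 0.25. The range over line means, 3.53, was reached or exceeded by 2.67% of genes, whose median range was 0.6.

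PSAT1, the second enzyme of the route, showed no such split. Its signal ran from 8.79 to 9.85 over the 12 arrays. No neighbouring line means differed beyond the spread of duplicates (range 0.71, or 1.64-fold, reached by 44.7% of genes). The ends of the order did differ by that rule, Namalwa (9.85 and 9.77) lying above SU-DHL6 (pooled duplicate SD 0.2). Where PHGDH was lowest, in SU-DHL4, PSAT1 stood at 9.76 and 9.8. The lowest PSAT1 line, SU-DHL6, read 9.41 and 8.79, the latter on the array with the large GAPDH difference, whose part in this was not tested.

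PSPH, the last enzyme, was read by 2 probe sets that did not tell the same story. On probe set 205048_s_at the signal was 9.81 and 9.39 in Namalwa, 8.35 and 8.37 in KM-H2, 7.62 and 7.72 in SU-DHL4, 7.26 and 6.84 in L428, 7.18 and 6.57 in SU-DHL6, and 6.2 and 5.56 in L1236. The means of Namalwa (9.6), KM-H2 (8.36), SU-DHL4 (7.67) and L428 (7.05) each stood apart from the next, as did L1236 (5.88) at the bottom, while L428 and SU-DHL6 (6.87) did not. Its range was 3.72, or 13.2-fold, which may understate the difference, as replicate 2 of L1236 (5.56) lay under its array's lower quartile (5.73). On probe set 205194_at the values spanned 6.86 to 8.27 only, with SU-DHL4 (8.26) highest and Namalwa at 7.37, and SU-DHL4 was the only line to stand apart from its neighbour in order. Across the 6 line means the probe sets correlated with r = 0.1, and the RefSeq table names 1 pseudogene of PSPH, so the level of the transcript in a given line is uncertain.

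SHMT2, the mitochondrial enzyme, was highest in L1236 and L428 on each of its 3 probe sets. On 214096_s_at, the brightest, the values were 12.28 and 12.35 in L1236 and 12.21 and 12.19 in L428, and 11.36 and 11.4 in KM-H2. The B-cell lines read 11.36 and 11.44 in Namalwa, 11.72 and 11.19 in SU-DHL4, and 11.39 and 11.6 in SU-DHL6. L1236 and L428 did not differ beyond the spread, and the step down to the next line was 0.7 (1.63-fold) on this probe set, 0.62 on 214437_s_at and 0.43 on 214095_at. KM-H2 took its place among the B-cell lines on 214096_s_at and 214437_s_at, but on 214095_at its 8.11 and 8.02 lay 0.71 below the next line. The 3 probe sets correlated over line means with r of 0.83 to 0.97.

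MTHFD2, the next mitochondrial step, varied little, from 10.52 to 11.18 over all arrays. Its range over line means was 0.45, with no neighbouring lines apart. The ends of its order did stand apart, KM-H2 at 11.18 and 11.09 and SU-DHL6 at 10.85 and 10.52 (pooled duplicate SD 0.14). The probe set of SHMT1 lay under the lower quartile of its array on 12 of 12 arrays (4.77 to 5.14) and gives no more than an upper bound. RefSeq names 7 pseudogenes of MTHFD2, 5 of ASNS, 4 of PSAT1 and 1 of SHMT1, whose transcripts the same probes might read.

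ASNS followed PHGDH in part. Its signal was 10.78 and 11.31 in SU-DHL6, 10.78 and 10.98 in L428, 10.43 and 10.47 in Namalwa, 10.28 and 10.06 in SU-DHL4, 9.59 and 9.32 in KM-H2, and 9.16 and 9.36 in L1236. The means of SU-DHL6 (11.05) and L428 (10.88) did not differ beyond the spread, Namalwa (10.45) and SU-DHL4 (10.17) formed the next pair, and KM-H2 (9.46) and L1236 (9.26) the lowest. The range was 1.79, or 3.46-fold. Over the 6 line means, which share the arrays and their normalisation, ASNS and PHGDH correlated with r = 0.83 (Spearman rho = 0.71), whereas PHGDH correlated with PSAT1 at r = -0.43 and with the brighter probe set of PSPH at r = 0.2. SU-DHL4 was the line in which they parted, with PHGDH at its lowest and ASNS in the middle of its range.

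ASS1, the arginine enzyme, was high in L428 and close to background in the other 5 lines. L428 read 10.29 and 9.67. The other 10 arrays lay between 5.47 and 6.56, and on 4 of them the signal was under the lower quartile of the array. SU-DHL6 read 5.71 and 6.56, the higher value again on replicate 2. The step from L428 (9.98) to SU-DHL6 (6.13) was 3.85, or 14.4-fold, which understates the difference if the lower lines hold background alone. Below L428 no neighbouring lines differed beyond the spread, and the range of 4.34 was reached by 1.36% of genes. RefSeq names 14 pseudogenes of ASS1 that share its sequence in part, so a contribution from these to the probe set cannot be told apart.

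**Figure D1:**
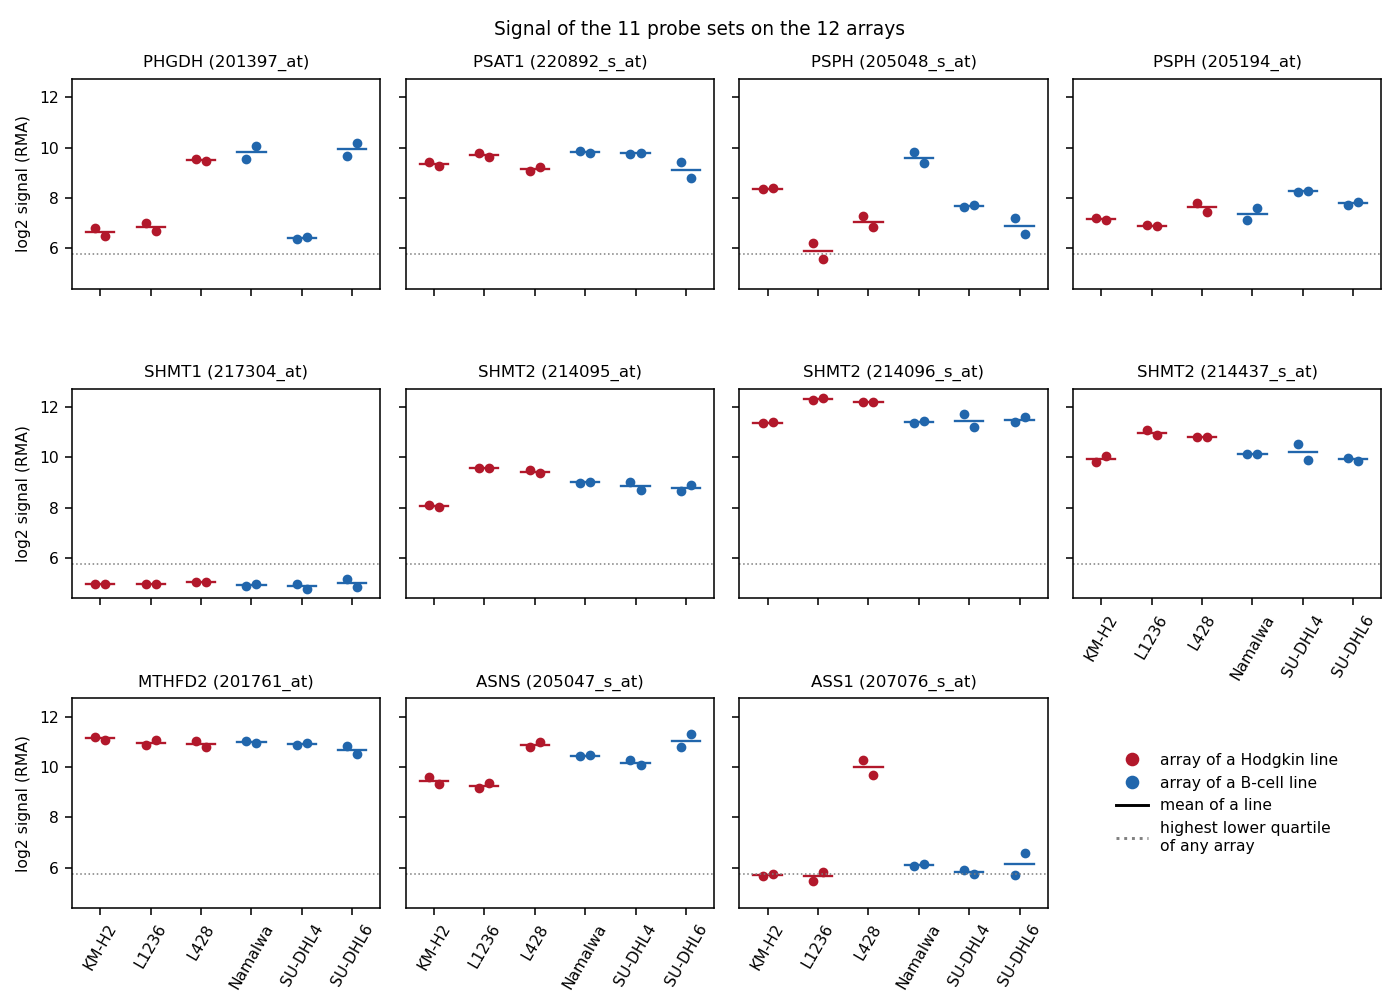
Log2 signal (y axis) of each of the 11 probe sets on the 12 arrays, with the lines on the x axis, Hodgkin lines in red, B-cell lines in blue, bars at line means and a dotted line at 5.75, the highest lower quartile of any array. PHGDH is near 10 in L428, Namalwa and SU-DHL6 and under 7 in the other lines. ASS1 is high in L428, and PSAT1 and MTHFD2 vary less than these.

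Each line was then compared with the average of the remaining pair of its type in a limma fit of all 12 arrays, with a call at an adjusted p under 0.05 and a difference of at least 1 on the log2 scale. These calls rest on the spread between duplicates, and the 3 comparisons within a type share their arrays. In L428, 3 of 11 probe sets were called (5.61% of all probe sets), with ASS1 higher by 4.3 ± 0.23 (SE), PHGDH by 2.77 ± 0.18 and ASNS by 1.52 ± 0.15. KM-H2 had 4 calls (7.02% of all), namely ASS1 at -2.1, PHGDH at -1.54 and SHMT2 on 214095_at at -1.44 ± 0.11, and PSPH on 205048_s_at at 1.89 ± 0.22. L1236 had 3 (6.38% of all), with ASS1 at -2.2, PSPH on 205048_s_at at -1.82 (replicate 2 under its lower quartile) and PHGDH at -1.23. The negative ASS1 and PHGDH values in KM-H2 and L1236 come from L428 standing in the mean they were set against, since both lines read alike for these genes.

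Among the B-cell lines, SU-DHL4 had 1 call (3.45% of all), PHGDH at -3.47 ± 0.18, or 11.1-fold lower. Namalwa had 2 (3.5% of all), PHGDH at 1.65 and PSPH on 205048_s_at at 2.33 ± 0.22. SU-DHL6 had 2 (4.01% of all), PHGDH at 1.82 and PSPH on 205048_s_at at -1.76. Without replicate 1 of SU-DHL6, which leaves the array with the large GAPDH difference to stand for the line, PSAT1 (-1.01) and ASNS (1.0) were also called in it, which makes 4, while the calls over all probe sets rose from 891 to 1158. By the mean of both PSPH probe sets, the differences of PSPH shrank to 0.84 in Namalwa, -0.9 in SU-DHL6 and 0.9 in KM-H2, all under the fold needed for a call. The PHGDH calls of Namalwa and SU-DHL6 likewise come from SU-DHL4 (6.4) standing in the mean, the 2 lines being alike at 9.81 and 9.93. With all arrays PSAT1, MTHFD2 and SHMT1, the last not separable from background, were called in 0 of the 6 lines.

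**Figure D2:**
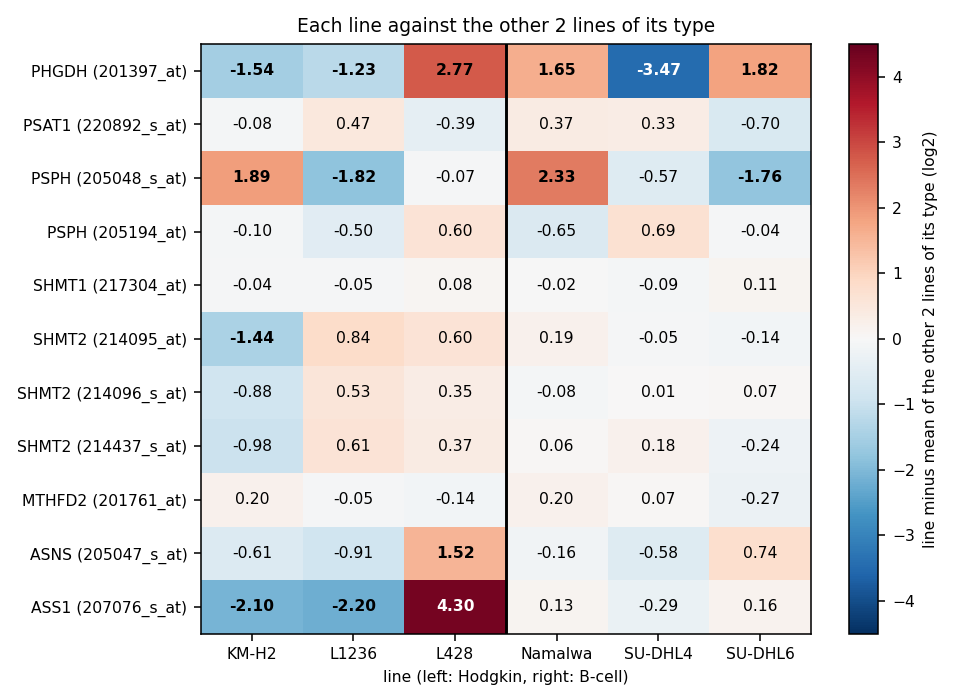
Log2 difference of each line (columns, Hodgkin lines left of the black bar) from the average of the remaining pair of its type for the 11 probe sets (rows), with red for higher, blue for lower and bold type for a call. The strongest cells are ASS1 at 4.3 in L428 and PHGDH at -3.47 in SU-DHL4.

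The line means of Hodgkin and B-cell lines overlapped in each of these genes. On line means, 3 against 3, limma called 0 of the 11 probe sets, where 1.23% of all probe sets were called. At an unadjusted p under 0.05 the count was also 0, against 14.4% of all probe sets, and 0 of the 11 had types that did not overlap, where 22.6% of all probe sets had such types. The median difference over the 11 was 0.05 and over all probe sets 0. Over 3 lines each, PHGDH averaged 7.66 ± 1.6 (SD) for Hodgkin and 8.72 ± 2.0 for B-cell lymphoma, a difference of -1.06 ± 1.28 (SE). ASS1 averaged 7.11 ± 2.49 and 6.02 ± 0.17, a difference of 1.09 ± 1.25 that was -0.35 without L428. ASNS stood at 9.87 ± 0.89 and 10.56 ± 0.45 (difference -0.69 ± 0.5), which was -1.2 without L428 and -0.38 without L1236. The difference of PHGDH was -2.21 without SU-DHL4 and -0.45 without SU-DHL6. For PSPH the difference was -0.95 ± 0.94 on 205048_s_at and -0.58 ± 0.29 on 205194_at.

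SHMT2 had differences of 0.51 ± 0.26, 0.49 ± 0.3 and 0.15 ± 0.42 on its 3 probe sets. Without KM-H2, 1 of the 11 probe sets was called, SHMT2 on 214096_s_at with 0.81, beside 244 of all 22215 in that fit of Hodgkin against B-cell lines. On 214095_at the difference was 0.63 without KM-H2 and -0.13 without L1236. The differences of PSAT1 (-0.17 ± 0.25) and MTHFD2 (0.13 ± 0.11) were small with small errors. That of SHMT1 (0.05 ± 0.07) says nothing of its level, as its signal lay under the lower quartile on 12 of 12 arrays. Against Namalwa alone, the B-cell line that shares a dataset with the Hodgkin lines, the Hodgkin mean differed by -2.15 for PHGDH and -2.5 for PSPH on 205048_s_at, and against SU-DHL4 and SU-DHL6 by -0.51 and -0.17. None of the 11 (0) had an adjusted p under 0.05 in the authors' deposited table, where 13.5% of probe sets did.

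**Figure D3:**
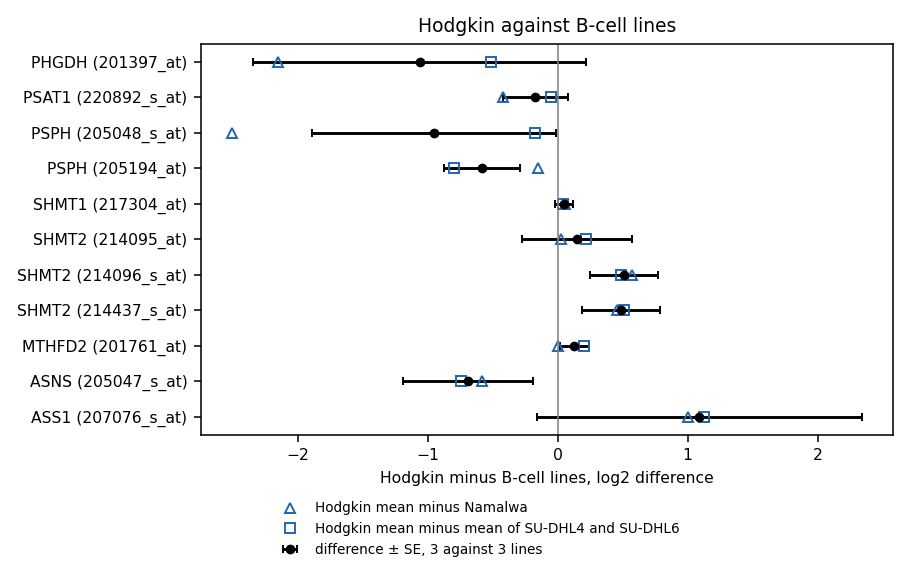
Hodgkin minus B-cell difference on the log2 scale (x axis) for each probe set (y axis), with black points and bars for the difference ± SE over 3 against 3 lines, triangles for the Hodgkin mean minus Namalwa and squares for the Hodgkin mean minus that of SU-DHL4 and SU-DHL6. The bars of PHGDH and ASS1 are the widest and just reach past 0, and those of PSAT1, SHMT1 and MTHFD2 are short. The signal of SHMT1 lay under the lower quartile on all arrays.

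The wider pathways were followed in 8 lists with 139 entries, of which 117 had a probe set used here, each gene by its brightest. Of the 117, limma called 2 higher and 1 lower in the Hodgkin lines, beside 0.468% and 0.869% of all genes in these directions and 1.34% in either, and 18 had an unadjusted p under 0.05 against 1837 of 11963 genes. Their median difference was -0.03 (0 over all genes). ENO2, the neuronal form of enolase, which acts in glycolysis after the branch to serine, had a mean of 10.06 ± 0.7 in Hodgkin lines (SD, n = 3 each) and 6.29 ± 0.55 in B-cell lines, at least 13.7-fold higher in Hodgkin, since Namalwa at 5.65 lay under the lower quartile of its arrays (difference 3.78 ± 0.45 SE, limma adjusted p = 0.036). NOS3, the endothelial nitric oxide synthase, which consumes arginine, was 4.41-fold higher, at 7.95 ± 0.45 against 5.81 ± 0.08, close to background (2.14 ± 0.24, adjusted p = 0.0309). SLC43A1, a carrier of large neutral amino acids, was 1.92-fold lower (-0.94 ± 0.13, adjusted p = 0.0477). Each of these calls was lost without any 1 of the B-cell lines, where fewer lines remain to test with, and over all alternatives the adjusted p ran from 8.42e-05 to 0.242 for ENO2, 0.0002 to 0.317 for NOS3 and 6.92e-05 to 0.418 for SLC43A1. The call of NOS3 was also lost without KM-H2 or L428 and those of ENO2 and SLC43A1 without L1236 or L428. These genes were not followed when an array was left out, or with the dataset as a block, another floor or normalisation, or gene means. Over the other alternatives the difference of NOS3 was 2.01 to 2.4, that of ENO2 3.46 to 4.41 and that of SLC43A1 -1.06 to -0.84.

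The lists around the members showed few or no calls between the types, and the genes at their ends are given as values. Of 12 folate one-carbon genes 0 were called (1 with unadjusted p under 0.05, median -0.09), and they ran from GGH, which trims folate tails, at 0.59 and MTHFD1, the cytosolic folate enzyme, at 0.53 down to the mitochondrial folate carrier SLC25A32 at -0.51 and the purine enzyme GART at -0.57. Among 11 further serine and glycine genes 0 were called (2 unadjusted, median 0.01), with glycine decarboxylase GLDC at 1.72 and SPTLC1, a subunit of the transferase that joins serine to a fatty acid, at 0.42, and at the other end its partner SPTLC2 at -0.69 and CBS, which condenses serine with homocysteine, at -1.39. For 14 genes of other amino acids the count was 0 (0 unadjusted, median -0.01), from PYCR3 (0.38), of proline synthesis, and BCKDHB (0.35), of branched-chain breakdown, to glutamate dehydrogenase GLUD1 (-0.34) and the branched-chain transaminase BCAT1 (-0.91). The arginine and urea cycle list had NOS3 as its 1 call among 12 (median 0.02), followed by ornithine aminotransferase OAT at 0.66, with the ornithine carrier SLC25A15 at -0.68 and GATM, of creatine synthesis, at -1.79.

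Of 14 amino acid transporters, 1 was lower, SLC43A1, and 4 had an unadjusted p under 0.05 (median -0.33). The others at its ends were the glutamine and alanine carrier SLC38A2 (0.84), SLC7A8 (0.12), SLC38A1 (-1.01) and SLC7A7 (-1.19). In the list of ATF4 and the integrated stress response 0 of 20 were called (3 unadjusted, median -0.1), from ATF5 at 0.95 and EIF2S1 at 0.42 to the tRNA exporter XPOT at -0.8 and the kinase PERK, encoded by EIF2AK3, at -1.41. ATF4 itself, named outside the rule for the lists and with its values known, was not called (-0.62 ± 0.29). It stood at 10.08 in KM-H2 and 10.54 in L1236 and at 11.09 to 11.34 in the other 4 lines. Whether the list shared a course over the lines was not tested, and 3 more of its genes are named with their values known. TRIB3 read 8.89 in L1236, 8.86 in L428 and 8.84 in SU-DHL4, and DDIT3 was highest in L1236 (8.41). HERPUD1 read 10.37 to 10.82 in L428, Namalwa and SU-DHL6 and 9.72 to 9.77 in the other lines. The 16 aminoacyl-tRNA synthetases, which load amino acids onto tRNA, had 0 calls (4 unadjusted, median 0.11) and ran from WARS1 (0.7) and RARS1 (0.57) to NARS1 (-0.67) and GARS1 (-0.8). Among 18 glycolytic genes ENO2 was the 1 call (3 unadjusted, median 0.08), with pyruvate kinase PKM next at 0.37 and hexokinase HK2 (-0.36) and phosphofructokinase PFKM (-1.01) lowest.

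**Figure D4:**
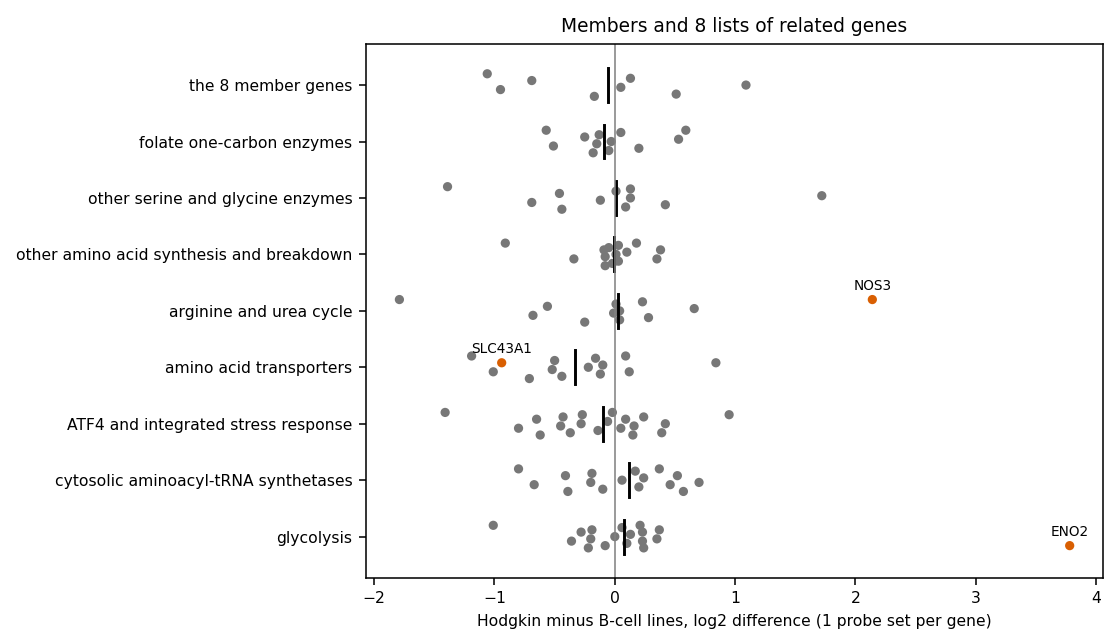
Hodgkin minus B-cell difference on the log2 scale (x axis) of each gene in the 8 lists and of the 8 member genes (rows), with a dot per gene, a black bar at the list's median and orange for calls. ENO2, NOS3 and SLC43A1 are the called genes, and the medians lie between -0.33 and 0.11.

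L428, called higher than KM-H2 and L1236 in PHGDH, ASNS and ASS1, was also set against these lines for the lists. Of the 3 genes only ASS1 was high in L428 alone, since SU-DHL6 was as high in PHGDH and ASNS and Namalwa in PHGDH. Of the 117 list genes 12 were called higher in L428 (3.33% of all genes) and 3 lower (3.03% of all genes). Transporters gave 5 of these from 14, named here after their values were seen. SLC1A4, a carrier of serine and other neutral amino acids, was higher by 2.41 ± 0.32 (SE), with 10.79 and 10.73 in L428 against 7.29 to 8.79 on the arrays of KM-H2 and L1236, where the duplicates of KM-H2 lay far apart (8.77 and 7.29). SLC7A5 and SLC3A2, the light and heavy chains of a carrier of large neutral amino acids, were higher by 2.38 ± 0.13 and 1.61 ± 0.13. The B-cell lines lay between, at 9.27 to 10.17 for SLC1A4, 10.4 to 10.82 for SLC7A5 and 9.27 to 9.79 for SLC3A2. The L428 means were 10.76, 11.74 and 10.36 in that order. SLC38A1, a glutamine carrier, was higher by 1.99 ± 0.09 with KM-H2 at 10.08 and L1236 at 6.46, so it was L1236 that stood apart, and SLC7A11, the cystine carrier, was higher by at least 1.45, as the arrays of KM-H2 and L1236 read 5.22 to 5.64, under their lower quartiles.

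GLDC, which breaks down glycine in mitochondria, was 15-fold higher in L428 (3.91 ± 0.13), at 10.08 and 10.57 on its arrays against 5.86 to 6.89 on the other 10. DLD, a subunit that GLDC's complex shares with others, was higher by 1.19 ± 0.08, with KM-H2 low at 8.62 and L428 at 10.37 close to the B-cell lines (10.0 to 10.03). BCKDHB (3.21), the seryl-tRNA synthetase SARS1 (1.46), SLC25A32 (1.24, with KM-H2 at 8.38, B-cell lines at 9.54 to 9.6 and L428 at 9.88), PYCR3 (1.24) and the phosphofructokinase PFKP (1.14) were the rest of those higher. For SARS1 the B-cell lines read 9.85 to 10.43, between KM-H2 (9.21) and L1236 (9.79) on the one side and L428 (10.96) on the other. PFKP read 11.26 in L428, 10.61 in KM-H2 and 9.64 in L1236, a line itself called at -1.3. Lower were PFKM (-2.56), ALDOC (-2.3 ± 0.37) and EIF2AK3 (-1.18). ALDOC was also low in SU-DHL4 (7.66, against 7.2 in L428). Its duplicates lay far apart in KM-H2 (10.29 and 9.33) and SU-DHL6 (9.05 and 10.59). In L1236 the lists had 2 higher and 10 lower calls (3.7% and 3.39% of all genes) and in KM-H2 10 and 9 (3.88% and 3.84%). Among the B-cell lines the counts were 1 and 4 in Namalwa (2.01% and 1.81% of all genes), 4 and 5 in SU-DHL4 (1.89% and 1.87%) and 6 and 1 in SU-DHL6 (1.93% and 2.35%).

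Genes with the most similar course over the 6 line means were sought for the 4 members whose brightest probe set ranged over at least 1 on the log2 scale, among 3765 other genes with such a range. For PHGDH they were BBIP1 (r = 0.995), HERPUD1 (0.953) and SUPT3H (0.904), and 6 genes in all exceeded an r of 0.9. BBIP1, a subunit of the complex that carries proteins to cilia, read 7.97 to 8.15 in L428, Namalwa and SU-DHL6 and 6.91 to 7.22 in the others. HERPUD1, of endoplasmic reticulum protein degradation and also in the ATF4 list, read 10.37 to 10.82 and 9.72 to 9.77 in these. ASS1 was matched most closely by GPR25 (r = 0.999), ARMCX2 (0.997) and MIIP (0.995), with 96 genes over 0.9, and GPR25 and ARMCX2 read 4.68 to 4.96 in the 5 lines other than L428, under the lower quartile. ASNS was followed by CENPQ (0.984), ZNF706 (0.982) and DENND1A (0.979), with 32 over 0.9, though CENPQ stayed at 5.49 or less, under the lower quartile of the arrays. The brighter probe set of PSPH was followed by GADD45A (0.976), CSTF2T (0.971) and IKZF5 (0.958), with 19 over 0.9. With 6 points such values describe the order of the lines and no more.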

How the data were processed

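Per the series' design text and the submitters' processing notes, the authors hybridised total RNA of the 6 lines to HG-U133A arrays and normalised with RMA in R 2.10.1, and the deposited expression table holds log2 values (lowest 3.62, highest 14.3). The settings of RMA were not stated there. The authors' deposited table of Hodgkin against B-cell lines, per the file headers, holds raw and adjusted p-values beside log2 differences, and these differences equal those between means of 6 and 6 arrays in the expression table.

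Of 22283 probe sets 68 controls were left out. Of the rest, 19065 carried 1 gene symbol in the platform annotation, 1043 several and 2107 none. RefSeq (GRCh38.p14) held 19053 of the single-symbol probe sets by Entrez identifier and changed 0 names. A gene in a list was represented by its probe set of highest mean.

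In R 4.3.3 with limma 3.58.1 (lmFit, eBayes, two-sided), Hodgkin and B-cell lines were compared on 6 line means, and each line with the other 2 lines of its type on 12 arrays. The Benjamini-Hochberg adjustment ran over all 22215 probe sets with a threshold of 0.05, and line comparisons also needed a log2 difference of at least 1. The functions were tested on simulated data. In line comparisons the p-value reflects nothing beyond the difference of duplicates, which may be technical. The number of arrays limits precision.

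The members, the lists and the tests were chosen with earlier results of these data known. All members were named. From each list the called genes, the 2 highest and the 2 lowest differences were named, and for patterns the 3 genes closest by Pearson correlation. ATF4, with TRIB3, DDIT3 and HERPUD1 of its list, and the pathway genes called in L428 were named outside this rule, with their values known. Alternatives left out lines or arrays and changed the replicate unit, dataset, filter, variance model, floor, normalisation and probe set rule.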

Additional observations from a re-analysis of the deposited data

How the results depend on the processing

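The member counts between types moved little. Of the 11 probe sets 0 to 1 were called when a line or an array was left out, the 1 being SHMT2 on 214096_s_at without KM-H2, and 0 in the other alternatives. The count over all probe sets for Hodgkin against B-cell lines, 273, was 42 to 273 when a line or an array was left out (42 without SU-DHL4, 66 without SU-DHL6, 86 without L428), 45 with the dataset as a block, 46 in the published dataset alone and 146 with the new B-cell lines alone. With all 12 arrays as replicates, which counts duplicates as separate lines, it was 2996, and 2546 with a replicate block. In the authors' deposited table it was 2993. Of the pathway genes 3 were called, 0 to 2 when a line was left out, 0 in the published dataset alone, 18 with 12 arrays as replicates and 16 with a replicate block. The replicate numbers did not pair the arrays, since deviations of same-numbered arrays correlated at -0.44 to 0.3 over 15 pairs of lines and above 0.1 in 4, and with a replicate block no member call of a line changed. Member calls of a line stayed at 2 in Namalwa, 1 in SU-DHL4 and 3 in L428 when an array was left out, and ran from 2 to 4 in SU-DHL6, 4 to 5 in KM-H2 and 3 to 4 in L1236. By gene means over probe sets the member genes called fell from 2 to 1 in Namalwa and from 2 to 1 in SU-DHL6, through PSPH, whose probe sets disagree, and in KM-H2 PSPH was lost and SHMT2 gained (-1.10). With an intensity trend in the variance the SLC43A1 Hodgkin minus B-cell difference was no longer called (limma adjusted p = 0.0656, and 0.0303 to 0.181 when a line was left out). No called member difference changed sign under any alternative run. Values at or near background, as for ASS1 outside L428 and for SHMT1, limit what can be said of lower levels.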
